A study of Mus musculus with 24 samples.

Results

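Axon guidance cues steer growing nerve fibres by binding receptors at the growth cone, and the ligands and receptors of the 4 classical systems were followed here in dorsal root ganglia (DRGs) after sciatic nerve injury. The genes were chosen by name. They were all probes whose gene name was a numbered semaphorin, Slit, Robo or netrin, began with Plxna, Plxnb, Plxnc, Plxnd, Epha, Ephb, Efna, Efnb or Unc5, or was *Nrp1*, *Nrp2* or *Dcc*. This gave 71 genes on 129 probes, of 27398 gene names and 41174 non-control probes. Of these genes, 35 encode ligands and 34 encode receptors or co-receptors. *Unc50* and *Unc5cl* matched by spelling alone and are not netrin receptors.

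Total RNA came from adult male C57BL/6J mice that were wild type (WT) or knockout (KO) for *Nfil3*, a transcription factor gene that injured sensory neurons switch on. The KO allele was a germline deletion, made by crossing *Nfil3* lox mice with 129Cre mice, so every cell of the animal lacked it, and the WT mice were littermates. The left sciatic nerve was cut and its ends were joined again, and the lumbar DRGs of that side were taken 2 or 5 days later. The control groups, named Day0 in the sample titles, were DRGs of the uninjured side. The 6 groups (WT control, WT day 2, WT day 5, KO control, KO day 2 and KO day 5) held 4 independent samples each. The labels name the tissue DRG neurons, but the whole ganglion was processed, with its satellite glia, Schwann cells, vessels and immune cells. Each of the 12 arrays, on 3 slides, carried 1 sample in Cy3 and another in Cy5, with 2 samples of each group in each dye. Values are log2 intensities after quantile normalisation, and 54.5 to 72.3% of probes per sample were well above background.

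Semaphorins are secreted or membrane-bound ligands that act mostly through plexins, and secreted class 3 semaphorins bind neuropilins, which form a complex with A-type plexins. Ephrins are held at the membrane and bind Eph receptor tyrosine kinases on a neighbouring cell. Netrins attract growth cones through *Dcc* and repel them through the Unc5 receptors, and Slits repel through Robo receptors. In the adult DRG these molecules are made by sensory neurons as well as by glia and vessels, and many of the same receptors are read by axons that regrow after a nerve lesion.

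The labels were first set against the genes that should follow them. *Nfil3* lay at 8.44 to 9.01 in the WT controls, 10.34 to 10.76 at day 2 and 10.64 to 11.09 at day 5, and at 6.23 or lower in 11 of the 12 KO samples. KO control replicate 4 stood at 7.59. For this sample the labels disagree with each other, since its title says Day0 and its day field says 5. Its *Sprr1a* value of 11.43 and *Atf3* value of 9.66, both regeneration-associated genes, were within the range of the WT controls, which reached 11.68 and 9.98, and below every lesioned sample, of which the lowest were 12.60 and 12.94. In the other KO controls these genes reached at most 8.15 (*Sprr1a*) and 9.04 (*Atf3*), so this sample was the highest of its group. It also shared its array with a KO day 5 sample. It was kept as a control, and the main counts are also given without it.

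In injured DRGs, more of the guidance genes that changed fell than rose at day 2, while *Sema6a* had a rise larger than any other change. At day 2, 26 of the 71 genes (36.6%) differed from control in the mean of both genotypes at an adjusted p under 0.05 (limma, Benjamini-Hochberg over all probes), against 22.1% of all genes. Of these, 6 were higher (8.45%, against 9.48% of all genes) and 20 were lower (28.2%, against 12.7%). At day 5, 26 genes passed (36.6%, against 23.2%), with 10 higher (14.1%, against 10.2%) and 16 lower (22.5%, against 13%). Without KO control replicate 4 the counts were 24 and 23. Among genes that were well above background in all 24 samples, 21 of 52 guidance genes passed at day 2 (40.4%, against 35% of such genes on the array) and 23 of 52 at day 5 (44.2%, against 37.2%). The median log2 change of the 71 genes was -0.06 at each day, beside -0.02 and -0.03 over all genes. In whole ganglia, fewer cells of a type and less RNA per cell cannot be told apart.

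**Figure D1:**
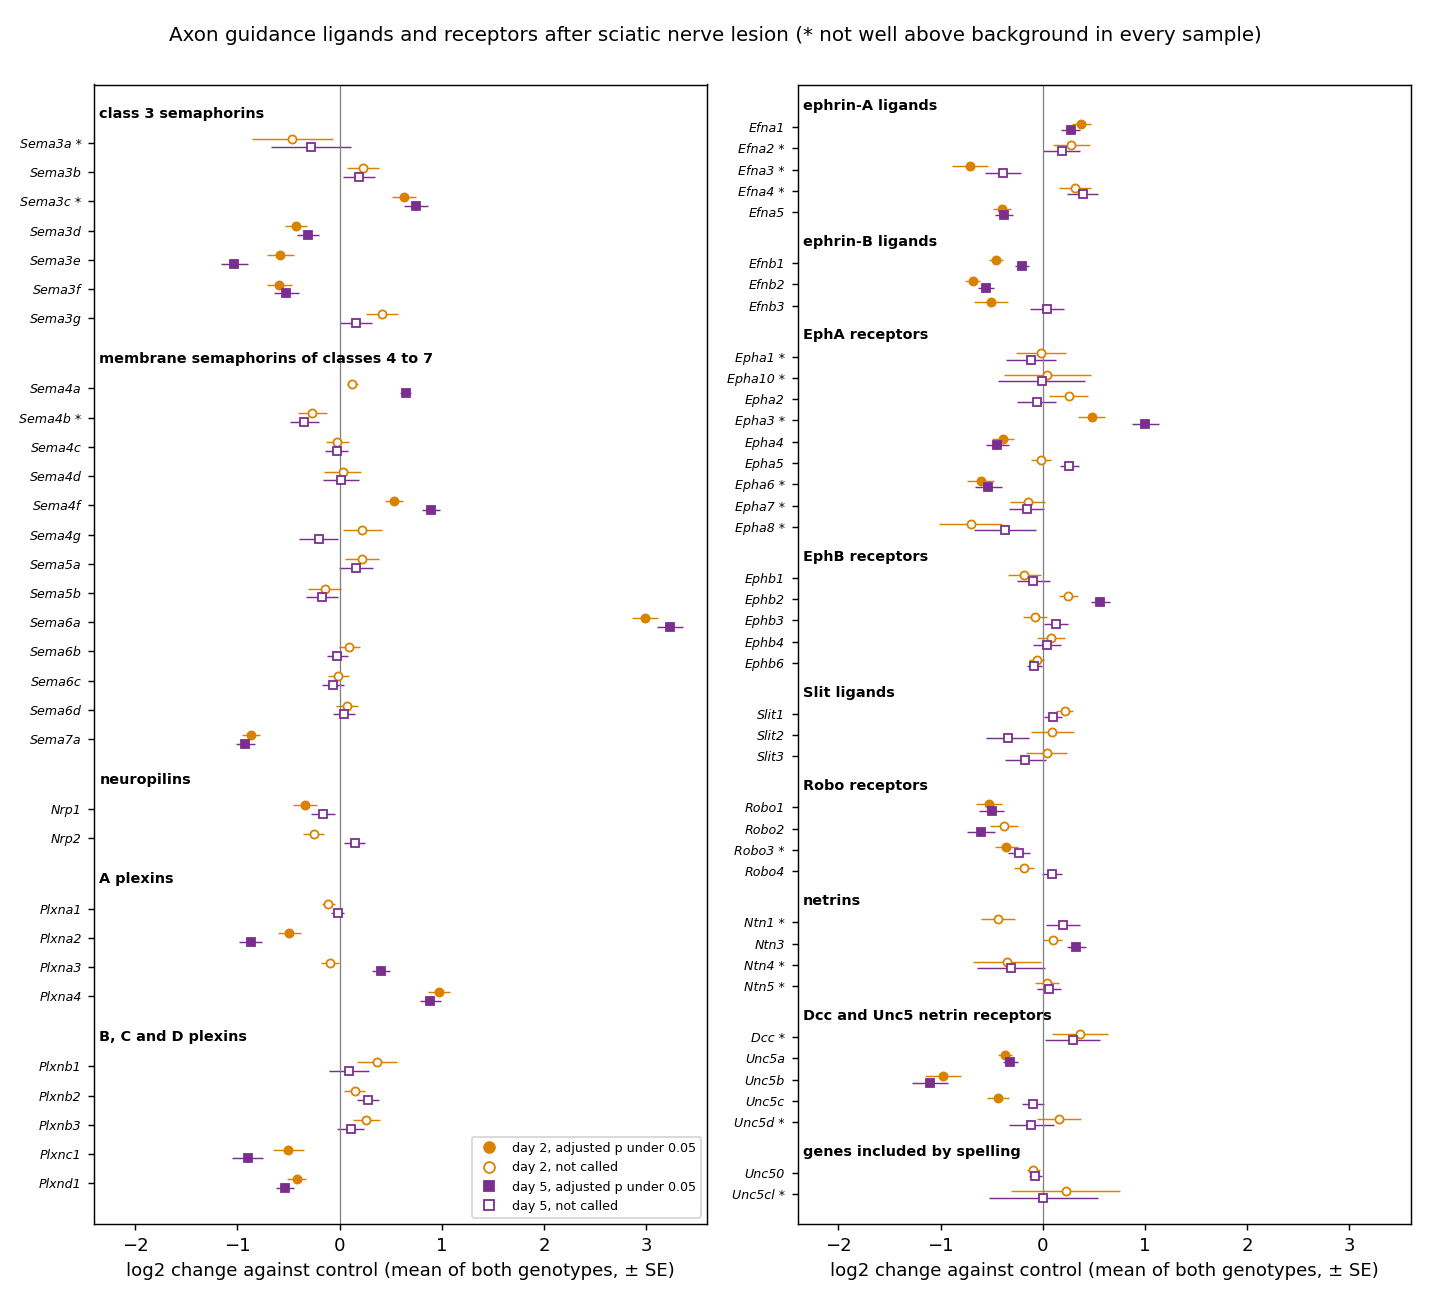
Log2 change against control (x axis, mean of both genotypes ± SE, 8 lesioned against 8 control samples) for the 71 guidance genes, ordered by family, at day 2 and day 5. Filled points have an adjusted p under 0.05 and asterisks mark the genes that were not well above background in every sample; *Sema6a* stands far to the right of all others, at 2.99 and 3.24, and most other filled points lie to the left of 0.

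Among the transmembrane semaphorins, *Sema6a* had the highest change of any guidance gene at both days. *Sema6a* encodes a class 6 semaphorin that acts as a ligand for A-type plexins and also as a receptor in its own right. Its log2 levels in the WT controls were 6.75, 7.02, 6.81 and 7.09, and in the KO controls 6.91, 6.82, 6.92 and 6.99. At day 2 they were 10.04, 10.20, 9.77 and 9.66 in WT and 9.98, 9.88, 9.27 and 10.41 in KO. At day 5 they were 9.89, 10.21, 10.08 and 10.37 in WT and 9.88, 10.30, 10.24 and 10.26 in KO. Every lesioned sample of either genotype was above every control. The log2 change was 2.99 ± 0.13 (SE) at day 2, a 7.92-fold rise (adjusted p = 1.15e-12, limma), and 3.24 ± 0.13 at day 5, a 9.44-fold rise (adjusted p = 2.22e-13, limma). A second *Sema6a* probe rose by 2.16 and 2.29, and the third was never well above background. With all 3 probes averaged the rise was 1.71 at day 2 and 1.95 at day 5. Within the 3 slides the rise ran from 2.41 to 3.31 at day 2, where slide 1 held 1 day 2 sample, and from 3.16 to 3.38 at day 5.

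*Sema4f* and *Sema4a*, both class 4 transmembrane semaphorins, followed different courses. *Sema4f* lay at 10.49 to 10.83 in the 8 controls, 10.88 to 11.47 at day 2 and 11.30 to 11.87 at day 5, with no overlap between controls and either day. It rose by 0.53 ± 0.09 at day 2 (adjusted p = 0.000182, limma) and by 0.89 ± 0.09 at day 5 (adjusted p = 2.51e-07, limma), and the further rise from day 2 to day 5 was 0.36 (adjusted p = 0.0282). *Sema4a* stood at 8.20, 8.23, 8.21 and 8.12 in the WT controls, 8.27, 8.31, 8.41 and 8.24 at day 2, and 9.08, 8.75, 8.91 and 8.76 at day 5. In KO the values were 8.31, 8.29, 8.35 and 8.27 in controls, 8.54, 8.29, 8.50 and 8.42 at day 2, and 8.86, 8.92, 8.97 and 8.91 at day 5. All 8 day 5 samples of *Sema4a* were above all controls and all day 2 samples, while day 2 and control overlapped. Its change was 0.12 at day 2 (adjusted p = 0.131) and 0.65 ± 0.06 at day 5 (adjusted p = 3.2e-08, limma), with 0.52 ± 0.06 between the days (adjusted p = 1.05e-05).

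*Sema7a*, the GPI-anchored semaphorin that binds *Plxnc1* and integrins, fell at both days. Its levels were 11.61, 11.92, 12.26 and 11.61 in the WT controls and 11.83, 12.19, 11.85 and 11.76 in the KO controls. At day 2 they were 11.06, 10.98, 11.10 and 11.14 in WT and 10.95, 11.04, 11.01 and 10.81 in KO, and at day 5 10.79, 11.08, 10.94 and 11.02 in WT and 11.11, 11.05, 10.80 and 10.87 in KO. No lesioned sample reached the lowest control. It fell by 0.87 on the log2 scale at day 2 (SE 0.09, adjusted p = 6.61e-07, limma) and by 0.92 at day 5 (SE 0.09, adjusted p = 2.05e-07). Of the 13 membrane-bound semaphorins, 2 rose and 1 fell at day 2, and 3 rose and 1 fell at day 5. This and the later family counts are read beside the shares of all genes. Those were 9.48% higher and 12.7% lower at day 2, and 10.2% and 13% at day 5. No family was tested as a set. *Sema4b*, *Sema4c*, *Sema4d*, *Sema4g*, *Sema5a*, *Sema5b*, *Sema6b*, *Sema6c* and *Sema6d* did not pass at either day. For *Sema5b* the probes disagreed. Its brightest probe gave -0.15 and -0.17 (neither called), while the others fell by 0.98 and 0.88 at day 2 and by 1.04 and 1.10 at day 5 (all called).

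**Figure D2:**
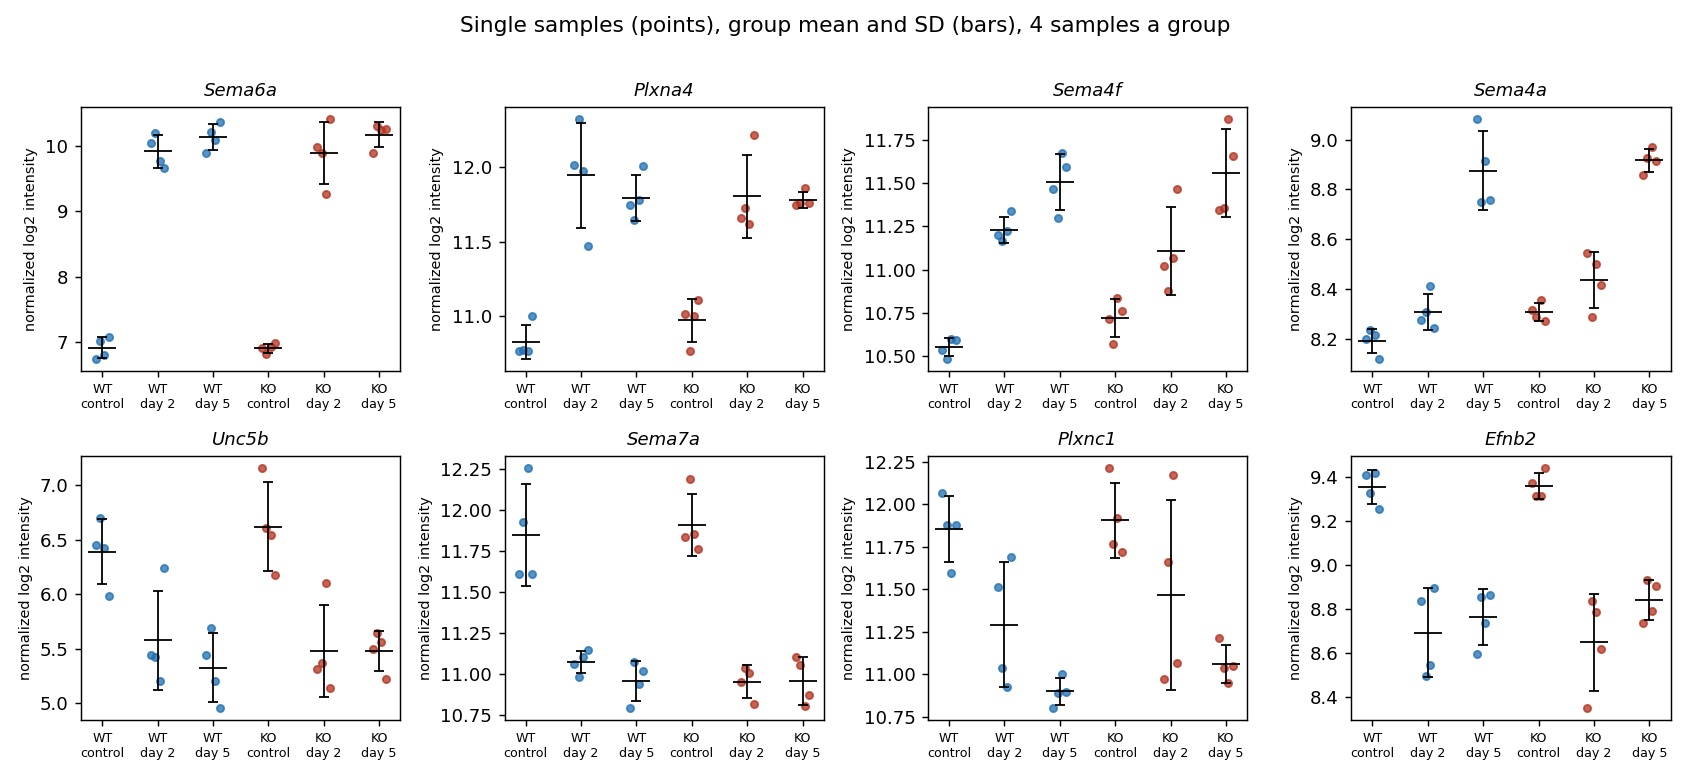
Log2 intensity (y axis) of 8 guidance genes in every sample, by group (x axis: WT and KO, control, day 2 and day 5; 4 points a group with mean ± SD). WT and KO samples sit at like levels within each time, and for *Sema6a*, *Plxna4* and *Sema4f* all lesioned samples lie above all controls.

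Of the 7 secreted class 3 semaphorins, 1 rose and 3 fell at each day. *Sema3c*, which acts through neuropilins, ran from 4.91 to 5.82 in the controls, 5.81 to 6.402 at day 2 and 5.99 to 6.65 at day 5, and rose by 0.63 ± 0.12 (adjusted p = 0.000613, limma) and 0.75 ± 0.12 (adjusted p = 8.86e-05). The ranges overlapped at day 2 by a single hundredth and were separate at day 5. *Sema3e*, which binds *Plxnd1* without a neuropilin, fell by 0.58 at day 2 (SE 0.13, adjusted p = 0.00333, limma) and by 1.03, or 2.04-fold, at day 5 (SE 0.13, adjusted p = 7.76e-06). Its controls ran from 8.39 to 8.90, its day 2 samples from 7.51 to 8.40 and its day 5 samples from 7.29 to 7.97, so that day 5 lay wholly below control. With all probes of the gene averaged, the fall of *Sema3e* at day 5 was 0.57 and no longer passed (adjusted p = 0.116), and that of *Sema3c* at day 2 did not pass either. *Sema3f*, a ligand for *Nrp2*, fell by 0.59 (adjusted p = 0.0015, limma) and 0.52 (adjusted p = 0.00337), and *Sema3d* was also lower at both days. *Sema3a*, the ligand best known for collapsing sensory growth cones, was not well above background in any sample on any of its 4 probes, so no change is given. *Sema3b* and *Sema3g* did not pass.

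Among the receptors, the A-type plexins moved in opposite directions. *Plxna4*, which transmits class 3 and class 6 semaphorin signals in sensory neurons, was higher at both days. Its levels were 10.77, 10.78, 10.77 and 10.997 in the WT controls and 11.01, 10.76, 11.002 and 11.10 in the KO controls. At day 2 they were 12.01, 12.32, 11.97 and 11.47 in WT and 11.66, 11.73, 11.62 and 12.22 in KO, and at day 5 11.75, 11.64, 11.78 and 12.005 in WT and 11.75, 11.76, 11.86 and 11.76 in KO. All lesioned samples were above all controls. The rise was 0.98 ± 0.11 at day 2, or 1.97-fold (adjusted p = 1.15e-06, limma), and 0.89 ± 0.11 at day 5, or 1.85-fold (adjusted p = 2.85e-06), and the other probes of the gene gave 1.498 and 0.94 at day 2 and 1.24 and 0.92 at day 5. This probe lies at chr6:32094602-32094661 (mm9); whether such probes lie in coding or untranslated exons was not analysed here.

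*Plxna2*, a receptor for semaphorins of classes 3 and 6, fell by 0.49 at day 2 (SE 0.11, adjusted p = 0.00297, limma) and by 0.87 at day 5 (SE 0.11, adjusted p = 7.08e-06). Its controls lay between 10.61 and 11.03, its day 2 samples between 9.87 and 10.57 and its day 5 samples between 9.45 and 10.23, with no overlap of either day with control. All 3 of its probes fell at day 5, the others by 0.64 and 0.74. At day 2 only 2 of the 3 probes were called lower. The probe not called lay at 9.57 to 10.01 in controls and 9.64 to 9.94 at day 2. *Plxna3* was near control at day 2 (-0.10, adjusted p = 0.497) and rose at day 5 by 0.41 ± 0.09 (adjusted p = 0.00153, limma), from 7.55 to 7.98 in controls to 8.07 to 8.49. The rise of *Plxna3* did not pass with all its probes averaged (0.29, adjusted p = 0.0739). *Plxna1* did not pass.

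*Plxnc1*, the receptor of *Sema7a*, fell at both days. Its levels were 12.07, 11.88, 11.60 and 11.88 in the WT controls and 12.21, 11.77, 11.92 and 11.72 in the KO controls. At day 2 they were 11.51, 11.04, 10.93 and 11.69 in WT and 10.97, 11.66, 12.17 and 11.07 in KO, and at day 5 10.80, 10.89, 11.003 and 10.90 in WT and 11.21, 11.03, 10.95 and 11.05 in KO. The day 2 samples were spread from well below the controls to among them, and the day 5 samples were all below. The fall was 0.50 at day 2 (SE 0.15, adjusted p = 0.0199, limma) and 0.90 at day 5 (SE 0.15, adjusted p = 0.000131). A second probe gave -0.26 at day 2 (adjusted p = 0.28) and -0.72 at day 5. *Plxnd1*, the *Sema3e* receptor, fell by 0.42 and 0.54 (at day 5 adjusted p = 0.000138, limma), and all its day 5 samples were below all controls. The B-type plexins *Plxnb1*, *Plxnb2* and *Plxnb3* did not pass.

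The day 2 values were not alike on all arrays. Of the 8 day 2 samples, 4 shared their array with another day 2 sample and 4 with a sample of another time. For *Plxnc1* the first 4 lay at 10.93 to 11.07 and the others at 11.51 to 12.17, which gave changes of -0.84 and -0.16 against controls split in the same way. The same split gave -0.87 and -0.29 for *Sema3e*, 1.22 and 0.73 for *Plxna4*, 3.26 and 2.71 for *Sema6a*, -1.01 and -0.72 for *Sema7a*, and -1.23 and -0.72 for *Unc5b*. Summed myelin genes of Schwann cells (7 genes, log2) lay at 16.93 to 17.61 in the first 4 and 16.09 to 16.71 in the others, fibroblast genes at 15.78 to 16.31 and 14.68 to 15.33, and macrophage genes at 11.99 to 12.21 and 11.28 to 11.74. The part of the array partner and of these cell types in the day 2 changes was not tested. Within the 3 slides the day 2 change of *Plxnc1* was 0.10, on slide 1 with its single day 2 sample, and -0.49 and -0.54 on the others, that of *Plxna4* ran from 0.69 to 1.34 and that of *Sema7a* from -1.06 to -0.76. In Cy3 and Cy5 the day 2 change of *Unc5b* was -1.34 and -0.61, and that of *Plxnc1* -0.69 and -0.32. At day 5 the split gave -0.85 and -0.95 for *Plxnc1*, 3.20 and 3.28 for *Sema6a* and -0.91 and -1.15 for *Sema3e*. It gave 0.96 and 0.82 for *Plxna4*, -1.07 and -0.78 for *Sema7a* and -1.08 and -1.13 for *Unc5b*. Wider day 5 splits were seen for *Plxna2* (-1.10 and -0.65) and *Sema3f* (-0.34 and -0.70).

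The neuropilins moved little. *Nrp1* gave -0.34 ± 0.12 at day 2 (adjusted p = 0.0451, limma), while its other probes gave 0.13 and -0.07, and the call held in only 17 of 39 settings. At day 5 its change was -0.16 (adjusted p = 0.395). *Nrp2* did not pass against control (-0.25 with adjusted p = 0.096 at day 2, and 0.15 at day 5), but day 5 exceeded day 2 by 0.40 (adjusted p = 0.0401, limma).

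All 3 ephrin-B ligands fell at day 2, and 2 of them fell at day 5. *Efnb2*, a transmembrane ligand for EphB receptors and *Epha4*, had control values of 9.41, 9.33, 9.42 and 9.26 in WT and 9.37, 9.31, 9.31 and 9.44 in KO. Its day 2 values were 8.83, 8.50, 8.54 and 8.89 in WT and 8.35, 8.83, 8.79 and 8.62 in KO, and its day 5 values 8.59, 8.85, 8.74 and 8.86 in WT and 8.73, 8.93, 8.79 and 8.90 in KO. Every lesioned sample was below every control, and the fall was 0.69 at day 2 (SE 0.08, adjusted p = 1.7e-06, limma) and 0.55 at day 5 (SE 0.08, adjusted p = 1.78e-05). *Efnb1* fell by 0.46 at day 2 (adjusted p = 6.32e-05, limma) and by 0.20 at day 5 (adjusted p = 0.0447), with a rise of 0.26 between the days (adjusted p = 0.0464). *Efnb3* fell by 0.51 at day 2 (adjusted p = 0.0322, limma) and was at 0.04 from control at day 5. Of the 5 GPI-anchored ephrin-A ligands, *Efna1* rose by 0.38 ± 0.09 (adjusted p = 0.00635, limma) and 0.27 (adjusted p = 0.0433, a call that held in 23 of 39 settings), and *Efna5* was lower at both days, by 0.40 and 0.38. *Efna3* was called lower at day 2 (-0.71, SE 0.18, adjusted p = 0.00576, limma), but its probe was not well above background in any KO day 2 sample, so the size is not settled and ran from -1.11 to -0.21 over the alternatives. At day 5 it gave -0.39 (adjusted p = 0.137). *Efna2* and *Efna4* did not pass.

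On the receptor side of the same system, *Epha3* rose and *Epha4* and *Epha6* fell. *Epha3*, a receptor for ephrin-A ligands, was read on a dim probe, detected above background in only 2 samples of each control group but in all 8 day 5 samples. It rose by 0.48 ± 0.13 at day 2 (adjusted p = 0.0138, limma) and by 1.00 ± 0.13 at day 5 (adjusted p = 1.17e-05), where the values of 5.33 to 5.79 lay above all controls (3.79 to 5.06). Its size depended on the processing of this dim signal, from 0.14 to 0.74 at day 2 and from 0.34 to 1.67 at day 5. *Epha6* fell by 0.61 (SE 0.13, adjusted p = 0.00216, limma) and 0.53 (adjusted p = 0.00508), and *Epha4*, which binds ephrins of both kinds, by 0.39 and 0.44. The *Epha6* probe was not well above background in every sample. Over the alternatives its change ran from -0.76 to -0.24 at day 2 and from -0.59 to -0.21 at day 5. The other EphA genes, *Epha1*, *Epha2*, *Epha5*, *Epha7*, *Epha8* and *Epha10*, did not pass, and *Epha8* was not well above background in any sample. A second *Epha7* probe fell by 0.47 at day 5. Of the 5 EphB genes, *Ephb2* rose by 0.56 ± 0.09 at day 5 (adjusted p = 0.00014, limma), from 5.27 to 5.59 in controls to 5.81 to 6.19, after 0.25 at day 2 (adjusted p = 0.0644). *Ephb1*, *Ephb3*, *Ephb4* and *Ephb6* did not pass.

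Of the netrin receptors, *Unc5b* changed most. *Unc5b* encodes a receptor for repulsion by netrins that is also known from vessels. It stood at 6.45, 6.70, 6.43 and 5.99 in the WT controls and 7.16, 6.60, 6.55 and 6.17 in the KO controls. At day 2 it was at 5.44, 5.42, 5.21 and 6.24 in WT and 5.32, 5.36, 6.10 and 5.14 in KO, and at day 5 at 5.44, 5.69, 5.20 and 4.96 in WT and 5.50, 5.65, 5.56 and 5.22 in KO. One WT and one KO sample of day 2 lay among the controls, and all day 5 samples lay below them. The fall was 0.98, or 1.97-fold, at day 2 (SE 0.18, adjusted p = 0.000367, limma) and 1.10, or 2.15-fold, at day 5 (SE 0.18, adjusted p = 8.15e-05). Over the alternatives the *Unc5b* change ran from -1.14 to -0.48 at day 2 and from -1.26 to -0.54 at day 5. *Unc5a* was lower at both days, by 0.37 and 0.32, and *Unc5c* at day 2, by 0.44 (adjusted p = 0.00499, limma), with -0.10 at day 5. *Unc5d* and *Dcc* were well above background in 5 and 4 of the 24 samples, so no change is given for them.

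Netrin ligands changed less. *Ntn3* rose at day 5 by 0.33 ± 0.09 (adjusted p = 0.012, limma) after 0.10 at day 2 (adjusted p = 0.524). *Ntn1* did not pass against control (-0.44 at day 2, adjusted p = 0.0743, and 0.20 at day 5), but was 0.64 higher at day 5 than at day 2 (adjusted p = 0.0441, limma). *Ntn4* and *Ntn5* did not pass, nor did *Unc50* and *Unc5cl*.

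In the Slit and Robo system the ligands *Slit1*, *Slit2* and *Slit3* did not pass at either day. *Slit1* gave 0.22 at day 2 (adjusted p = 0.0773, limma) and 0.10 at day 5, and *Slit2* 0.09 and -0.34. Of the 4 receptors, *Robo1* fell by 0.53 (SE 0.12, adjusted p = 0.00392, limma) and 0.50 (adjusted p = 0.00483), and *Robo3* by 0.36 at day 2, on a dim probe. *Robo2* gave -0.38 at day 2 (adjusted p = 0.0574) and fell by 0.60 at day 5 (SE 0.14, adjusted p = 0.00284, limma). Of the 6 *Robo2* probes, 3 were lower at day 5 and 0 higher. With the probes averaged the values at day 5 were -0.19 for *Robo2* (adjusted p = 0.536) and -0.29 for *Robo1* (adjusted p = 0.343). These averages include dim probes with scattered values, such as a *Robo2* probe at -0.15 to 4.29 and a *Robo1* probe at 0.24 to 4.27 over all samples. *Robo4*, the vessel Robo, did not pass.

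The counts by role are read beside the shares of all genes, 9.48% higher and 12.7% lower at day 2 and 10.2% and 13% at day 5. Of 35 ligands, 4 were higher and 9 lower at day 2, and 6 higher and 7 lower at day 5. Of 34 receptors, 2 were higher and 11 lower at day 2, and 4 higher and 9 lower at day 5. Between day 2 and day 5, 7 guidance genes differed (9.86%, against 3.28% of all genes), all 7 higher at day 5 (against 2.24%) and 0 lower (against 1.04%). They were *Sema4a*, *Plxna3*, *Sema4f*, *Epha3*, *Nrp2*, *Ntn1* and *Efnb1*. This count fell to 2 when KO day 2 replicate 2, WT day 2 replicate 1, WT day 5 replicate 3 or KO day 5 replicate 3 was left out. It was 3 without KO day 5 replicate 1, WT day 2 replicate 4 or WT day 5 replicate 1 or 4, and 4 when WT control replicate 2, WT day 2 replicate 2, KO day 5 replicate 2 or KO day 2 replicate 3 was omitted.

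Full separation of the samples gave 7 genes at day 2 (9.86%, against 6.54% of all genes) and 19 at day 5 (26.8%, against 11.7%). At day 2 *Sema6a*, *Plxna4* and *Sema4f* lay above all controls and *Efnb1*, *Efnb2*, *Plxna2* and *Sema7a* below. At day 5 *Sema6a*, *Plxna4*, *Sema4f*, *Sema4a*, *Epha3*, *Ephb2*, *Sema3c* and *Plxna3* lay above, and *Unc5b*, *Sema7a*, *Sema3e*, *Plxnc1*, *Plxna2*, *Efnb2*, *Plxnd1*, *Efna5*, *Epha4*, *Robo2* and *Unc5a* below. In total 38 genes passed in none of the 3 comparisons (each day against control and day 5 against day 2), 25 of them well above background in every sample.

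Markers of the cell types in a ganglion moved with the lesion too. Of 10 sensory neuron markers, 8 were lower at day 2 and 6 at day 5, where *Tubb3* was higher (0.43), and their summed log2 level was 19.0 to 19.33 in controls, 18.72 to 18.96 at day 2 and 18.67 to 19.01 at day 5. Of 9 macrophage markers, 6 and 9 were higher, with summed levels of 10.66 to 11.55, 11.28 to 12.21 and 12.59 to 13.17. Of 6 nociceptor markers, 3 and 5 were lower. The median change was -0.52 and -0.62 for the sensory neuron markers and -0.61 and -0.95 for the nociceptor markers, beside falls of 0.87 and 0.92 for *Sema7a* and 0.50 and 0.90 for *Plxnc1*. Of 5 markers of cycling cells, 3 were higher at each day, and of 6 of satellite glia, 2 were higher and 3 lower at day 2 and 2 and 1 at day 5. Myelin markers had 2 of 7 higher at day 2 and 0 at day 5, endothelial markers 1 of 7 and 0, and spinal cord glia 1 of 5 at each day, with *Opalin* never above background. Fibroblast markers had 0 of 7 called at day 2 and 1 higher and 1 lower at day 5. None of 5 T cell and 5 skeletal muscle markers passed, but the summed muscle level reached 13.49 in a KO day 5 sample, against 10.99 at most in the controls. The part of these cells in the changes of the guidance genes was not tested.

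Upstream sequence was available from RefSeq (GRCm38.p6) for 61 of the 71 genes, with 77 promoters of 300 bases (250 before and 50 after the start), and *Sema6a* and *Plxna4* had no entry. Sites for 3 factors known from injured neurons or from the study were searched on both strands. The AP-1 site TGAGTCA was found in 2 of the 77 (5.2% of all 32851 promoters in the table hold it), the CRE site TGACGTCA in 1 (1.79%), and the NFIL3-type site TTANGTAA in 0 (2.32%). The 3 matches were in genes that did not pass at either day, and are shown with the site in capitals.

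Sema4c, chr1:36558386-36558414, minus strand: ggcgcagacctTGACTCAcgagctgcaag
Sema6b, chr17:56133883-56133911, minus strand: cacacgtactcTGAGTCAcaaatcctgga
Epha2, chr4:141301177-141301206, plus strand: cgtggtttcggTGACGTCAgcgcagggcat

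*Sema4c* gave -0.02 and -0.03, *Sema6b* 0.09 and -0.02, and *Epha2* 0.25 and -0.06 at day 2 and day 5. For comparison, the 250 bases before the start are shown for *Sema4f*, which rose, and *Unc5b*, which fell, with CpG dinucleotides in capitals.

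Sema4f, chr6:82939770-82940019, minus strand: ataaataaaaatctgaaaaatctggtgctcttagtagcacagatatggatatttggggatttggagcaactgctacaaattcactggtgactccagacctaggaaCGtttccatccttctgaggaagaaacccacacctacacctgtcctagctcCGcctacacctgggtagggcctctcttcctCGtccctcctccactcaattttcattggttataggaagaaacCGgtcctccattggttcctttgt
Unc5b, chr10:60831582-60831831, minus strand: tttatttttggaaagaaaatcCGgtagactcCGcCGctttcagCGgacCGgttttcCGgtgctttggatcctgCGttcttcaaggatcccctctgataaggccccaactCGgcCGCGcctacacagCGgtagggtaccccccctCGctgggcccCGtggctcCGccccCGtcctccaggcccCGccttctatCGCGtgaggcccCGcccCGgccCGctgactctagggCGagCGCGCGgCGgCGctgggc

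*Sema4f* had 4 CpG in these bases and a GC content of 46%, and *Unc5b* 27 CpG and 66.8%. The medians of all promoters were 6 and 52.4%, and 37.8% of promoters had fewer CpG than *Sema4f* and 91.4% fewer than *Unc5b*. These are descriptions of the sequence, and nothing in the arrays measures the promoters themselves.

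The study asked which transcripts depend on NFIL3 after injury, and no guidance gene was called between KO and WT. In control DRGs 0 of 71 passed (0% of all genes), at day 2 0 of 71 (0.0146% of all genes, or 4) and at day 5 0 of 71 (0.0109%, or 3). For the interaction of time and genotype 0 of 71 passed (0% of all genes). With no gene called in controls or for the interaction, *Nfil3* itself did not pass these tests. It lay at 8.44 to 9.01 in the WT controls and 2.94 to 7.59 in the KO controls, so a missing call does not show equal levels. The study, with a time course test and limma, did report genes that differed between genotypes. At an unadjusted limma p under 0.05 the counts were 0, 0 and 1 guidance genes in controls, day 2 and day 5 and 0 for the interaction, against 1.7%, 3.81%, 2.38% and 2.12% of all genes. No alternative processing gave a call, and none appeared without KO control replicate 4. The guidance gene closest to the threshold in controls was *Sema3c* (KO minus WT 0.35, 95% interval -0.00 to 0.70), and at day 2 *Robo4* (-0.30, interval -0.59 to 0.00). At day 5 it was *Ntn5*, lower in KO (-0.44, interval -0.78 to -0.10), which was also closest for the interaction. The *Ntn5* probe was not well above background in every sample.

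**Figure D3:**
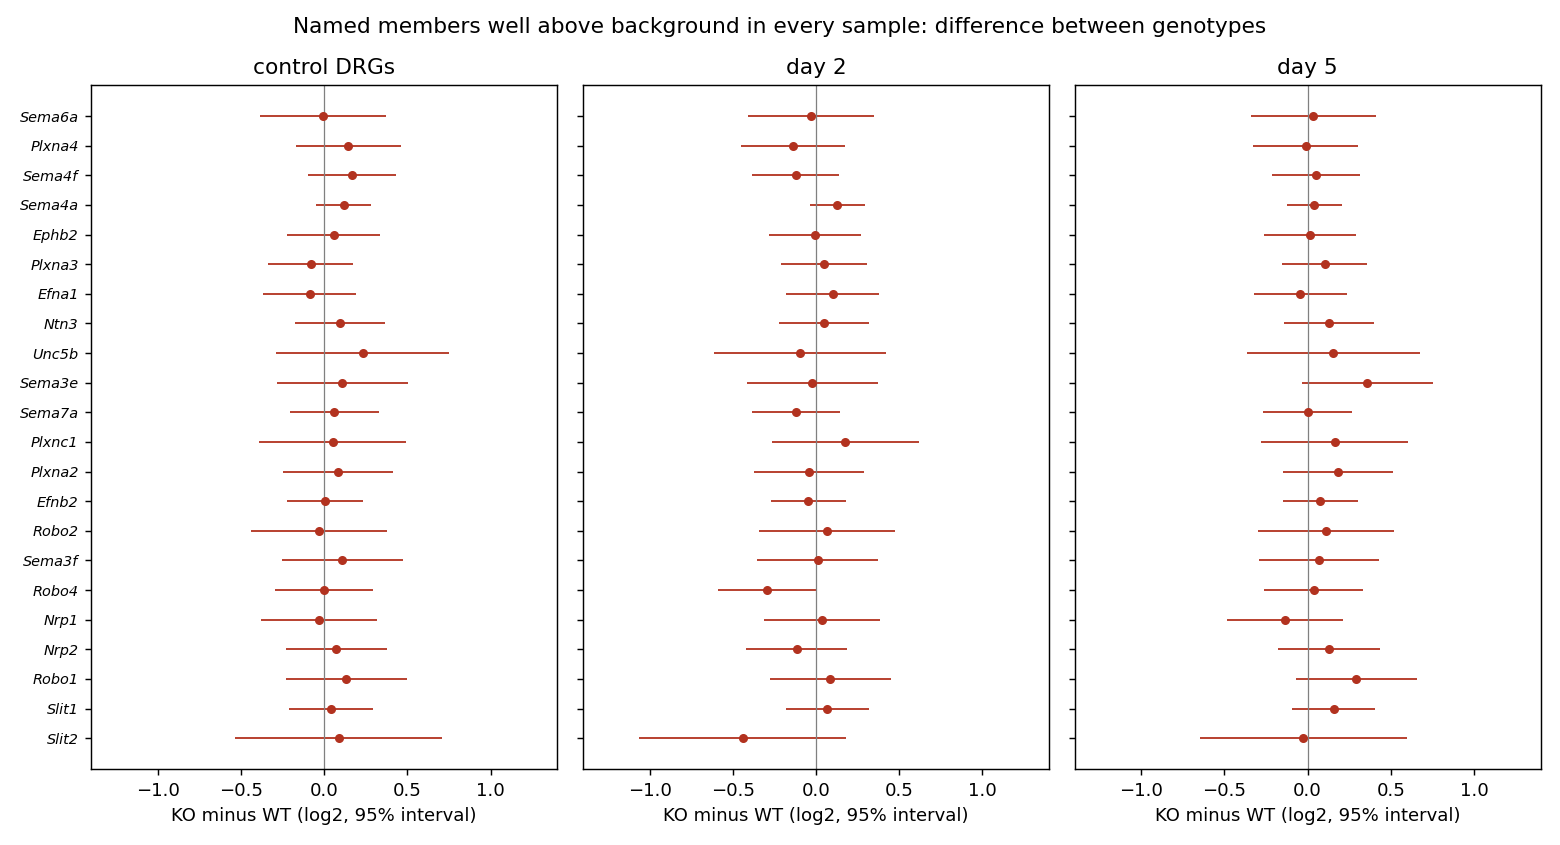
KO minus WT difference in log2 intensity (x axis, points with 95% intervals, 4 against 4 samples) for 22 named guidance genes in controls, at day 2 and at day 5. Only named genes well above background in every sample are shown, so *Ntn5* is not among them. All intervals shown span 0, and that of *Sema6a* at day 5 runs from -0.34 to 0.41.

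The intervals give the size of difference that these samples could still hold. Of the 52 genes well above background in every sample, the 95% interval of KO minus WT lay within a log2 difference of 1 either way for 52 in controls, 51 at day 2 and 52 at day 5. The exception was *Slit2* at day 2 (-0.44, interval -1.06 to 0.18). *Sema6a* gave -0.01 (-0.38 to 0.37) in controls, -0.03 (-0.41 to 0.35) at day 2 and 0.03 (-0.34 to 0.41) at day 5. *Unc5b* gave 0.23 (-0.29 to 0.75), -0.10 (-0.61 to 0.42) and 0.16 (-0.36 to 0.67), and *Plxna4* 0.14 (-0.17 to 0.46), -0.14 (-0.45 to 0.17) and -0.01 (-0.33 to 0.30).

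Tested within each genotype, 11 guidance genes passed in WT at day 2 (15.5%, against 11% of all genes) and 19 at day 5 (26.8%, against 13.9%). In KO, 16 passed at day 2 (22.5%, against 11.8%) and 15 at day 5 (21.1%, against 12.7%). Without KO control replicate 4 the KO counts were 11 and 15, and the KO day 2 count was 8 without KO control replicate 3 and 10 without KO day 2 replicate 1 or 4. *Sema6a* rose by 2.998 and 3.22 in WT and by 2.97 and 3.26 in KO. Across the 52 genes well above background throughout, the WT and KO changes correlated at r = 0.96 at day 2 and 0.98 at day 5, and at 0.92 and 0.96 over 51 genes without *Sema6a*. These genes share libraries and are not independent replicates. The greatest differences between the KO and the WT change were 0.53 for *Slit2* at day 2 and 0.31 for *Plxnb1* at day 5, neither called.

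**Figure D4:**
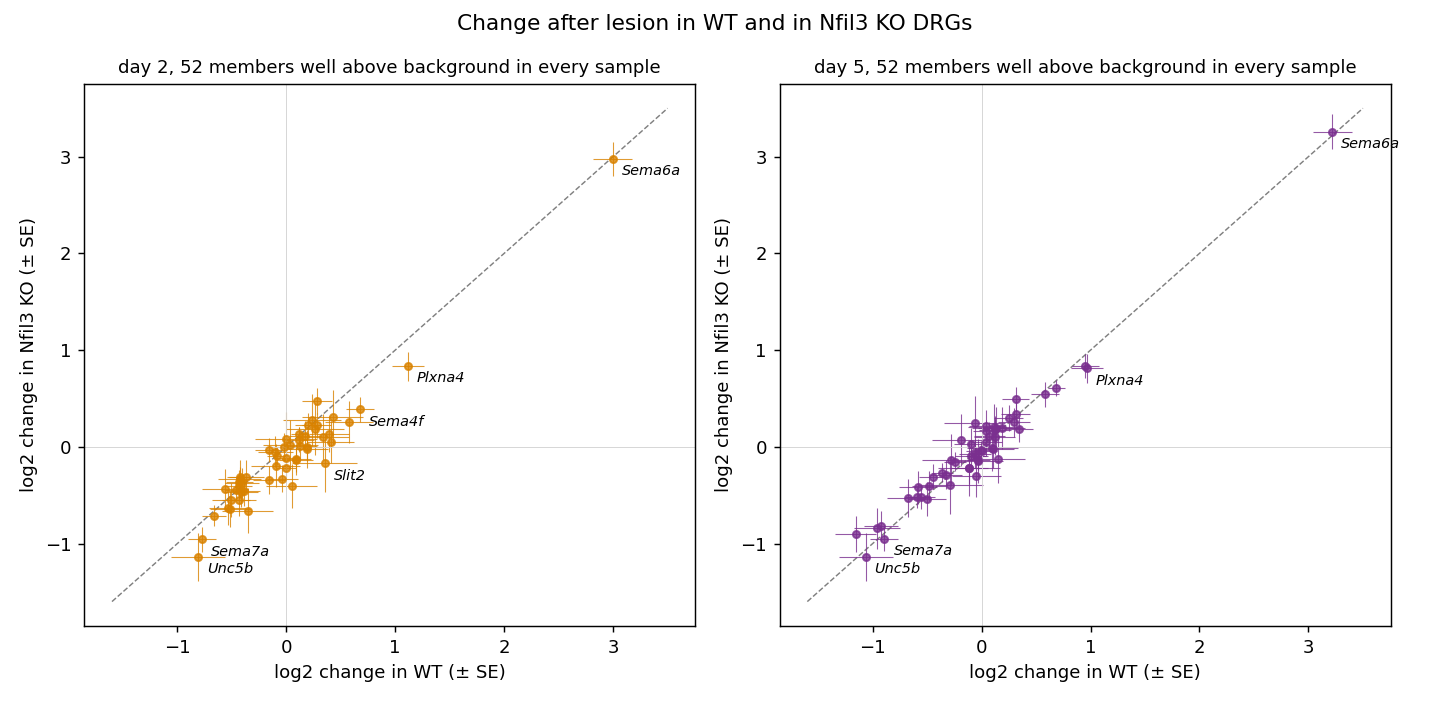
Log2 change against control in KO (y axis) and WT (x axis), ± SE, for the 52 guidance genes well above background in every sample, at day 2 and day 5. Points lie along the line of equal change (r = 0.96 and 0.98), with *Sema6a* alone at about 3 on both axes.

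Other proteins carry guidance signals on inside the growth cone, act as further cues or surface receptors, or modify guidance receptors and ligands. In 6 lists, 113 such genes, chosen with earlier results of these data known, were read in the same fit. In these, 24 were higher and 29 lower at day 2 and 25 and 28 at day 5. Of all genes, 9.48% were higher and 12.7% lower at day 2, and 10.2% and 13% at day 5. In either direction 22.1% and 23.2% of all genes were called, and 35% and 37.2% of those well above background in every sample. Not all of the 113 were well above background in every sample. Between KO and WT, and for the interaction, 0 were called.

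The 14 adhesion molecules and phosphatases that act with guidance receptors had 2 higher and 5 lower at day 2 and 3 and 6 at day 5. *Chl1*, a partner of *Nrp1*, rose by 1.13 and 1.97 and *Ptpro*, a phosphatase of Eph receptors, by 1.32 and 1.56. *Ptprd* fell by 0.77 and 0.47 and *Cntn4* by 0.40 and 0.72. Of 23 other cues and receptors, 4 were higher and 5 lower at day 2 and 2 and 5 at day 5, with rises of 3.51 and 3.44 for *Flrt3*, an Unc5 ligand, and 0.55 at day 2 for *Met*, the receptor of hepatocyte growth factor (0.38 at day 5, not called). *Dscam*, a netrin receptor, fell by 1.04 and 0.87, and *Ntng1*, a netrin-G, by 0.85 and 0.77.

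A list of 14 genes held CRMPs, Micals and kinases that act below class 3 semaphorins, and *Micall1*, a Mical-like gene. Of these, 4 were higher and 2 lower at day 2 and 3 and 1 at day 5. *Micall1* rose by 0.73 and 0.81 and *Fes* by 0.44 and 0.89. *Mical1*, *Mical2* and *Mical3* were not called at either day. Among the CRMPs, *Dpysl2*, or CRMP2, fell by 0.31 and 0.37, *Crmp1* rose by 0.79 and 0.77, and the others were not called. *Cdk5r1* fell by 0.47 at day 2 and gave -0.22 at day 5 (not called). Of 25 adaptor, kinase and actin genes, 6 were higher and 5 lower at day 2 and 8 and 6 at day 5, with *Nck2* up by 0.55 and 0.73 and *Rock2* by 0.53 and 0.30. *Limk1*, the cofilin kinase, fell by 0.52 and 0.74. Of 10 proteases and heparan sulphate genes, which release or present guidance ligands, 2 were higher and 1 lower at day 2 and 5 and 1 at day 5. *Adam10*, a protease that cleaves ephrins, rose by 0.53 and 0.54, *Mmp2* gave 0.33 (not called) and rose by 0.72, *Gpc1* gave 0.20 (not called) and rose by 0.31, and *Hs6st1* fell by 0.35 and 0.51.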

How the data were processed

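Total RNA of DRGs was measured on Agilent whole mouse genome 4x44K arrays. The authors labelled 2 samples of each group with Cy3 and 2 with Cy5, used single-channel values and extracted them with Agilent Feature Extraction; the deposited values are spot intensities of 12 arrays, not normalised. As in the study's methods, mean foreground intensities were corrected for median background (Edwards) and quantile normalised over the 24 channels in limma 3.58.1 (R 4.3.3). From these, log2 intensities were computed without control spots, spots flagged as outliers were set missing (417 probe values) and spots of a probe were averaged.

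A linear model with a mean for each of the 6 groups (lmFit, eBayes) was run on 41174 probes, with Benjamini-Hochberg adjustment over all of them and a threshold of 0.05. The study's SAM time course was not run. A gene was read from its brightest probe. Gene names and mm9 positions are those of the files. Replicate numbers, which appear in all groups, were not used to pair the samples in the main fit. The intervals cover the spread between samples, and 4 arrays a group limit their precision.

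The genes and all lists were chosen with earlier results of these data known. Named genes were the 10 highest and 10 lowest called changes at the day with the larger change, the smallest p of each KO test, and *Nrp1*, *Nrp2*, *Plxna4*, *Sema3a*, *Dcc*, *Unc5b*, *Ntn1*, *Robo1*, *Robo2*, *Slit1* and *Slit2*, and for each list of other genes the 2 highest and 2 lowest. One of these lists, and 1 gene of another, are not reported here. Other members are given by direction. A few members with values, and some listed genes such as *Crmp1*, were chosen after the values were seen. The 11 marker lists covered sensory neurons, nociceptors, satellite glia, Schwann cell myelin, macrophages, endothelial cells, fibroblasts, T cells, cycling cells, skeletal muscle and spinal cord glia. Alternatives changed background correction, normalisation, filter, probe choice, dye, slide, array and replicate block, the test, and left out each sample. Promoter sequences were RefSeq's (GRCm38.p6). Probe positions were not set against exons.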

Additional observations from a re-analysis of the deposited data

Results flagged for a closer look

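Of 180 groups of 4 samples tested for a sample far from the others, 9 held one, which is the share of about 1 in 20 that chance gives. The 9 cases carry no common label, but WT control replicate 4 and KO day 5 replicate 3 each appear for more than 1 gene. In the controls they were *Efna3* in WT replicate 4 (4.14, nearest other 5.18), *Plxna4* in WT replicate 4 (10.997, nearest 10.78) and *Sema3c* in KO replicate 2 (5.54, nearest 5.77). At day 2 there was *Nrp2* in KO replicate 3 (10.10, nearest 9.91). At day 5 they were *Efna1* in WT replicate 1 (7.75, nearest 7.56), *Nrp1* in KO replicate 2 (7.25, nearest 7.40), *Plxna3* in KO replicate 3 (8.49, nearest 8.16), *Plxna4* in KO replicate 3 (11.86, nearest 11.76) and *Sema6a* in KO replicate 1 (9.88, nearest 10.24). The *Sema6a* sample still lay far above every control.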

How the results depend on the processing

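No called change of a named gene turned its direction in any alternative. Changes near 0 or on dim probes that were not called did, among them *Slit2* at day 2 (-0.09 to 0.22) and *Robo4* at day 5 (-0.07 to 0.14). Leaving out each sample in turn gave 23 to 28 guidance genes at day 2, 23 to 28 at day 5 and 2 to 7 between the days. Within genotypes it gave 8 to 14 in WT at day 2, 14 to 20 in WT at day 5, 8 to 19 in KO at day 2 and 14 to 16 in KO at day 5, and 0 to 0 for KO against WT at each time and for the interaction. The other pathway genes ran from 43 to 54 at day 2 and 49 to 57 at day 5.

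Without background correction 31 guidance genes passed at day 2 and 32 at day 5, and 11 differed between the days. Leaving out the 4 controls that shared an array with a lesioned sample was an alternative chosen after seeing the data. It gave 19 guidance genes at day 2, 22 at day 5 and 4 between the days. Within genotypes it gave 7 and 11 in WT and 6 and 9 in KO at day 2 and day 5. Of the pathway genes, 29 passed at day 2 and 37 at day 5. The cause was not tested, and fewer samples enter these fits. This alternative ended the calls of *Efna1* at both days, *Epha3*, *Nrp1*, *Plxnc1* and *Sema3e* at day 2, and *Ntn3* and *Robo2* at day 5.

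Averaging all probes of a gene ended the calls of *Nrp1*, *Plxnc1*, *Sema3c* and *Sema3e* at day 2 and *Plxna3*, *Robo1*, *Robo2* and *Sema3e* at day 5. For *Robo1*, *Robo2* and *Sema3e* the averages include dim probes with scattered values. *Sema6a* kept its call in all 39 settings.

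Whether replicate numbers pair the samples was not settled. Of 60 pairs with the same number, 26 had residual correlations over 0.1, and 9 of 24 samples correlated best with their own number. The mean residual correlation was 0.05 for the same number, and -0.02 (same dye) and -0.01 (other dye) for other numbers. Pairing of the 2 sides of an animal was not tested. With the replicate block, 25 guidance genes passed at day 2, 26 at day 5 and 7 between the days.

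Signal over background limits the dim genes, since 19 of the 71 were not well above background in every sample.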
